A study of Mus musculus with 8 samples.

Results

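The serine incorporator genes Serinc1, Serinc2, Serinc3 and Serinc5 were examined in hippocampal RNA of male 3 × Tg-AD mice, which carry the amyloid precursor protein Swe, tau P301L and presenilin 1 M146V transgenes. The RA group (n = 4 arrays) had received a diet with 0.5% rosmarinic acid for 8 months, and the control group (n = 4 arrays) the same diet without it. All mice were 10 months old, and all carried the 3 transgenes, so no array shows the family without them. Every sample was read on an Affymetrix whole-genome mouse array of its own. The Methods name 4 mice per group but also speak of pooled total RNA, so the p-values measure the spread between arrays and not surely between mice.

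The members were all probe sets, groups of short probes against 1 transcript, that the platform annotation gives to exactly 1 of the 4 genes. There were 12 of them among 45037 probe sets (4 of 18193 named genes), 4 for Serinc1, 1 for Serinc2, 6 for Serinc3 and 1 for Serinc5. The family was chosen by the log2 fold change of Serinc1 between RA and control, which was among the largest decreases. Differences between RA and control in the 12 probe sets are therefore a description. Calls of them are counted below only to place them beside all probe sets, and they are no test.

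Serine incorporators are proteins with many membrane-spanning segments, named for the incorporation of the amino acid serine into phosphatidylserine and sphingolipids, lipids that are plentiful in neuronal membranes and myelin. Human SERINC3 and SERINC5 are known as host factors that lower the infectivity of retroviral particles. Serinc5, described in rat as TPO1, is known from myelin-forming oligodendrocytes.

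The values are log2 summaries made with FARMS, which gives a nearly constant value wherever the probes of a set carry no common signal. An SD over the 8 arrays of up to 0.01 was taken to mean that differences between arrays were not measured. By this limit 8 of the 12 probe sets varied (66.7%), 3 of Serinc1 and 5 of Serinc3, against 8.34% of all probe sets. The family was chosen by a decrease that only a varying probe set can show, so this share partly follows from the choice. The limit fell in a wide gap, between Serinc1 1454811_a_at with an SD of 0.00111 and Serinc1 1415838_at with an SD of 0.0692.

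Serinc2 and Serinc5 were thus not measured for differences. The Serinc2 probe set 1434382_at had group means of 5.99 in RA and 5.99 in control (SD over the 8 arrays 0.000326). Serinc5 1433571_at stayed at 7.03 on every RA and every control array, with an SD of 0.000302. The same held for Serinc1 1454811_a_at, at 10.60 to 10.61 in both groups, and for Serinc3 1448847_at, at 6.11 throughout. A constant FARMS value says nothing on whether a transcript was equal in both groups. Serinc4, the remaining mouse member, has 2 probe sets of its own, which were likewise constant at 5.46 and 5.33.

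The 8 probe sets that varied all had a lower mean in the RA group, by 0.02 to 0.67 on the log2 scale, while 26.9% of all varying probe sets did. Their median log2 fold change was -0.32, against 0.07 over all varying probe sets. In 3 of the 8 every RA array lay below every control array, where 2.87% of all varying probe sets had such groups. Calls were made with the rank product, as in the Methods, at an estimated share of false positives (the proportion of false positives) under 0.05. It called 4 of the 12 lower and none higher. Of all probe sets 0.575% were called lower, and of the varying ones 6.89%. These shares restate the comparison that chose the family and are printed for reference only. In bulk hippocampus, fewer cells of a type and less RNA per cell cannot be told apart.

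**Figure D1:**
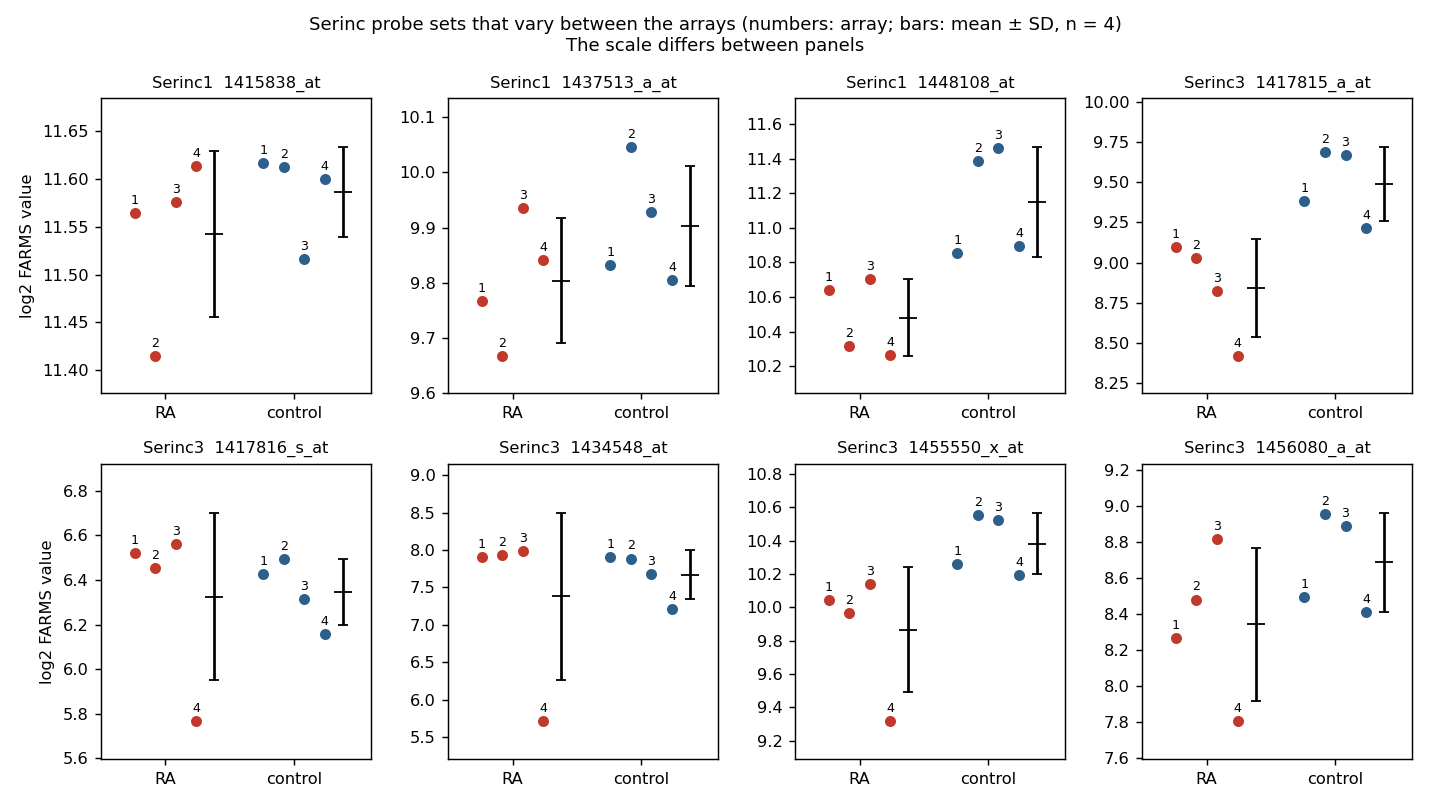
Log2 FARMS values of the 8 Serinc probe sets that varied, with 1 point per array (numbered), RA left of control, and bars for the mean ± SD (n = 4 each). The groups are apart in Serinc1 1448108_at and in Serinc3 1417815_a_at and 1455550_x_at, and RA 4 is the lowest array in all 5 Serinc3 panels.

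Among the Serinc1 probe sets, only 1448108_at separated the groups. Its log2 values were 10.64, 10.32, 10.70 and 10.27 in RA 1 to RA 4, against 10.86, 11.39, 11.46 and 10.90 in control 1 to control 4. No RA array reached the lowest control array, and the control group itself split into a pair near 11.4 and a pair near 10.9. The mean was 10.48 ± 0.22 (SD, n = 4) in the RA group and 11.15 ± 0.32 (SD, n = 4) in the control group, which differed by -0.67 on the log2 scale (standard error 0.19), or 0.629 times the control level. With any 1 array left out, the log2 fold change lay between -0.77 and -0.56.

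The other Serinc1 probe sets showed much smaller differences. Serinc1 1415838_at, which the annotation ties to the same transcript record as 1448108_at, had 11.56, 11.42, 11.58 and 11.61 in RA 1 to RA 4, against 11.62, 11.61, 11.52 and 11.60 in control 1 to control 4. The groups overlapped, RA 2 was the lowest array, and the log2 fold change was -0.04 (standard error 0.05). Without RA 2 it was -0.0014.

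Serinc1 1437513_a_at had 9.77, 9.67, 9.94 and 9.84 in RA 1 to RA 4, against 9.83, 10.05, 9.93 and 9.81 in control 1 to control 4. RA 3 and RA 4 lay within the control range, and the log2 fold change was -0.10 (standard error 0.08), or -0.05 without control 2. The 4 probe sets of Serinc1 thus gave log2 fold changes of -0.67, -0.10, -0.04 and a value that was not measured, so the annotated gene has no single difference on these arrays.

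**Figure D2:**
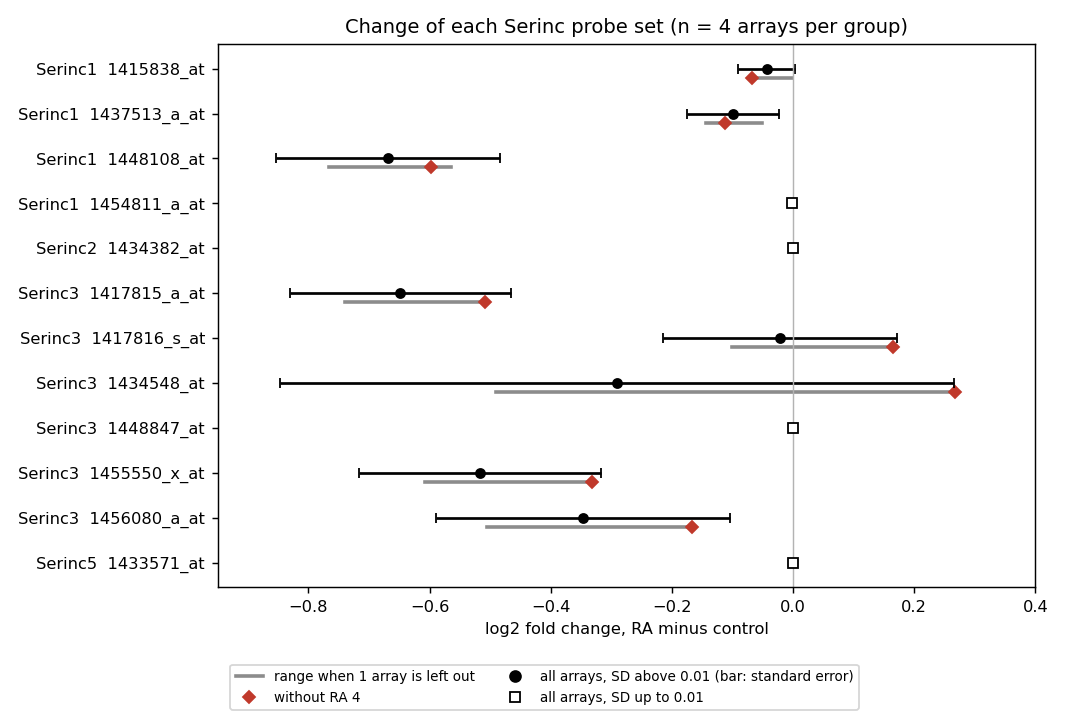
Log2 fold change (RA minus control) of the 12 Serinc probe sets, with limma's standard error as bars, the range over the 8 fits that leave out 1 array as grey lines, and the value without RA 4 as diamonds. Serinc1 1448108_at stays between -0.77 and -0.56, while Serinc3 1434548_at and 1417816_s_at lie above 0 without RA 4.

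Serinc3 was lower in the RA group in 3 probe sets that the rank product called. The clearest was 1417815_a_at, with 9.10, 9.03, 8.82 and 8.42 in RA 1 to RA 4, against 9.38, 9.69, 9.67 and 9.21 in control 1 to control 4. All RA arrays lay below all control arrays. The mean was 8.84 ± 0.30 (SD, n = 4) in the RA group and 9.49 ± 0.23 (SD, n = 4) in the control group, which differed by -0.65 on the log2 scale (standard error 0.18), or 0.638 times the control level, close in size to that of Serinc1 1448108_at. With any 1 array left out it ran from -0.74 to -0.51, the smallest change being that without RA 4.

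Serinc3 1455550_x_at, whose suffix marks a set with probes that can also match other sequences, had 10.04, 9.97, 10.14 and 9.32 in RA 1 to RA 4, against 10.26, 10.56, 10.52 and 10.19 in control 1 to control 4. The groups did not overlap, though RA 3 and control 4 lay close together, and the log2 fold change was -0.52 (standard error 0.20). Without RA 4 it was -0.33.

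In Serinc3 1456080_a_at the groups overlapped. Its values were 8.27, 8.48, 8.82 and 7.80 in RA 1 to RA 4, against 8.50, 8.96, 8.89 and 8.41 in control 1 to control 4, and the log2 fold change was -0.35 (standard error 0.24). Without RA 4 the log2 fold change was -0.17. The probe set was no longer called without RA 4, control 2 or control 3, nor when only varying probe sets were tested.

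The remaining Serinc3 probe sets depended on 1 array. Serinc3 1434548_at had 7.91, 7.93, 7.98 and 5.71 in RA 1 to RA 4, against 7.91, 7.89, 7.68 and 7.21 in control 1 to control 4. RA 4 lay far below the next lowest array, which was control 4, and the other 6 arrays lay between 7.68 and 7.98. The log2 fold change was -0.29 (standard error 0.56), and without RA 4 it was 0.27 (standard error 0.18).

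Serinc3 1417816_s_at, tied to the same transcript record as 1417815_a_at, had 6.52, 6.45, 6.56 and 5.77 in RA 1 to RA 4, against 6.42, 6.49, 6.31 and 6.16 in control 1 to control 4. Again RA 4 was lowest and control 4 next. Its log2 fold change was -0.02 (standard error 0.19), or 0.16 (standard error 0.09) without RA 4. RA 4 was the lowest of the 8 arrays in all 5 varying Serinc3 probe sets, and control 4 the lowest control array in all 5, while RA 4 was lowest in 4.68% of all varying probe sets.

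Whether the probe sets of 1 gene ordered the arrays alike was tested in the 13 pairs that both varied, with exact permutation tests over the 8 arrays, 2-sided and adjusted over the 13 pairs. None of the 3 Serinc1 pairs passed, with Pearson's r from 0.22 to 0.72. The highest was that of 1437513_a_at with 1448108_at, at r = 0.72 (exact permutation p = 0.0415, adjusted p = 0.0915) and Spearman's rho = 0.50 (exact permutation p = 0.216). Of the 10 Serinc3 pairs, with r from 0.51 to 0.97, 3 passed at an adjusted p under 0.05.

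Serinc3 1417816_s_at and 1434548_at had r = 0.97 (exact permutation p = 0.000521, adjusted p = 0.00677) and rho = 0.81 (exact permutation p = 0.0218, adjusted p = 0.0944). Without RA 4 and control 4, r was 0.89 (exact permutation p = 0.0292, adjusted p = 0.298). These are the 2 arrays farthest from the median of 1417816_s_at. In every pair the lower-numbered probe set alone decided which 2 arrays counted as farthest. The called probe sets 1417815_a_at and 1455550_x_at had r = 0.93 (exact permutation p = 0.00104, adjusted p = 0.00677) and rho = 0.93 (exact permutation p = 0.00223, adjusted p = 0.029). Their r was 0.84 without RA 4 and control 2 (exact permutation p = 0.0458, adjusted p = 0.298).

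The third such pair, 1455550_x_at and 1456080_a_at, had r = 0.91 (exact permutation p = 0.00409, adjusted p = 0.0177) and rho = 0.83 (exact permutation p = 0.0154, adjusted p = 0.0944). Without RA 4 and control 2 its r was 0.65 (exact permutation p = 0.158, adjusted p = 0.515). None of the 3 pairs thus passed without its 2 farthest arrays, although r stayed above 0 in each. With each group's mean subtracted, so that only the spread within groups was left, r was 0.99, 0.87 and 0.92 in these pairs, in the order given (exact permutation tests within groups, adjusted p = 0.0564, 0.0959 and 0.0564).

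The 3 called Serinc3 probe sets and the other 2 form 6 pairs, none of which passed. Pearson's r was 0.51 to 0.77 (exact permutation tests, adjusted p 0.0915 to 0.226), rho -0.12 to 0.38, and r with group means subtracted 0.77 to 0.93 (exact permutation tests within groups, adjusted p 0.0959 to 0.100). Without the 2 farthest arrays, RA 4 among them each time, r was -0.65 to -0.20 (exact permutation p 0.124 to 0.718, adjusted p 0.515 to 0.718), below 0 in all 6 but passing in none.

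The genes around Serinc3 were then read in the gene order of chromosome 2 in the assembly GRCm38.p6. This choice was made after the low values of RA 4 had been seen. Of the 25 protein-coding genes on each side of Serinc3, 7 had a varying probe set, 9 probe sets in all. Pkig, the next gene on one side, which encodes an inhibitor of protein kinase A, had 8.24, 8.44, 8.28 and 6.80 in RA 1 to RA 4, against 8.43, 8.11, 8.15 and 7.85 in control 1 to control 4. RA 4 was lowest by far and control 4 was next, as in Serinc3 1434548_at.

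Sdc4, which encodes the heparan sulfate proteoglycan syndecan 4 and lies 24 genes from Serinc3 on the same side, had probe sets that ran opposite ways. Sdc4 1417654_at had 8.07, 8.08, 8.13 and 7.64 in RA 1 to RA 4, against 7.98, 8.06, 8.05 and 7.96 in control 1 to control 4. Sdc4 1448793_a_at had 7.35, 7.39, 7.25 and 8.64 in RA 1 to RA 4, against 6.90, 7.25, 7.26 and 8.11 in control 1 to control 4. RA 4 and control 4 were thus the lowest arrays in one Sdc4 probe set and the highest in the other. RA 4 and control 4 were also the highest arrays in the kinase gene Stk4, 9 genes from Serinc3, at 8.35 and 8.31, against 7.83 to 8.13 on the other 6 arrays.

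In all, RA 4 was lowest with control 4 next in 2 of the 9 neighbouring probe sets, a pattern found in 0.426% of all varying probe sets. RA 4 was highest with control 4 next in 2 others, for which no share over all probe sets was counted. Sdc4 gave 1 probe set of each kind. As the window was read after the pattern had been seen, these counts are a description and no sign of a local excess. Srsf6, Tox2, Gdap1l1 and Ywhab, the other genes of the window, did not have RA 4 and control 4 together at either end. Over the 8 arrays, the genes most like Serinc3 1434548_at were Lsm12 on chromosome 11 (Pearson's r = 0.99), Pkig (0.98), Sdc4 (0.96), Med1 on chromosome 11 (0.94) and Cd99l2 on chromosome X (0.93). These were picked as the highest of all genes, so the correlations carry no test. In Cd99l2, a gene for a membrane protein, RA 4 alone was low, at 4.99 against 7.71 to 8.18 on the other 7 arrays. Lsm12, which encodes an RNA-binding protein, had 7.33, 7.39, 7.29 and 5.91 in RA 1 to RA 4, against 7.27, 7.34, 7.27 and 6.91 in control 1 to control 4. The pattern of RA 4 and control 4 was therefore found on more than 1 chromosome.

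**Figure D3:**
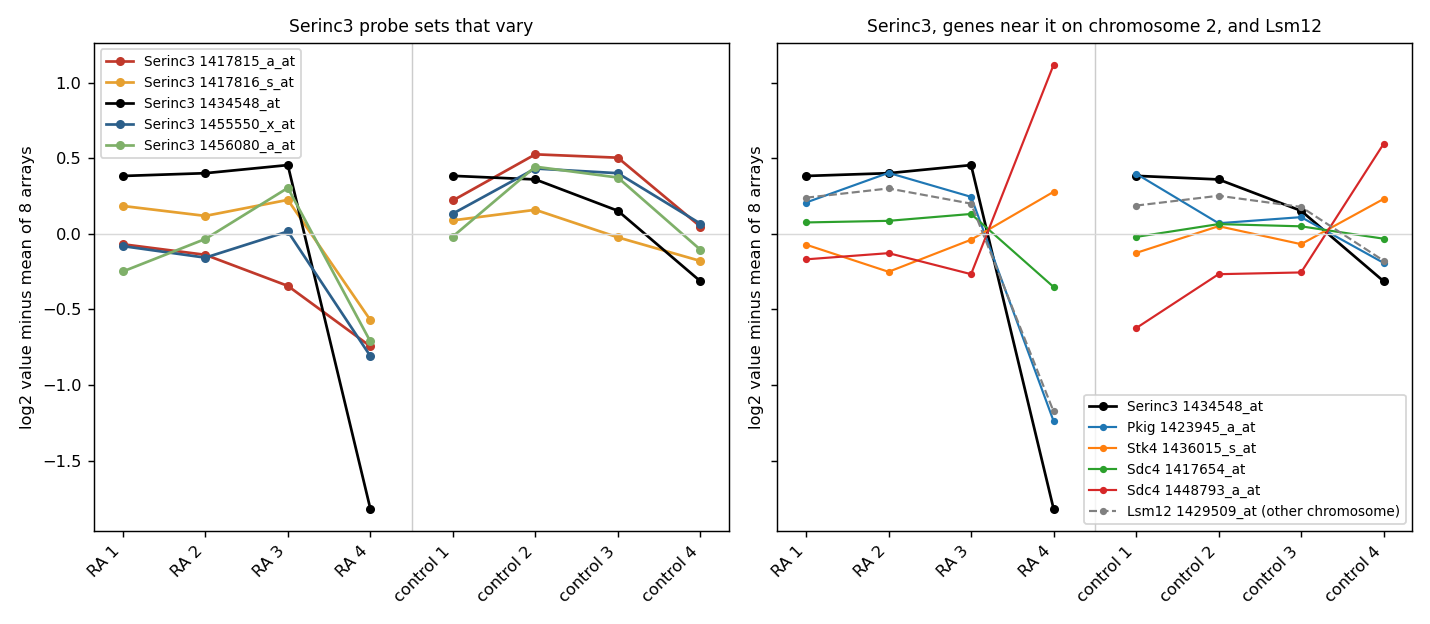
Log2 FARMS values minus the mean of the 8 arrays, for the 5 varying Serinc3 probe sets (left) and for Serinc3 1434548_at beside Pkig, Stk4, Sdc4 and Lsm12 (right). Lines only join the values of 1 probe set; in the right panel RA 4 and control 4 are the lowest arrays in Serinc3, Pkig, Lsm12 and Sdc4 1417654_at and the highest in Stk4 and Sdc4 1448793_a_at.

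Serinc1 1448108_at had a different set of closest genes. The 5 with the highest Pearson's r over the 8 arrays were the G protein subunit Gnaq (0.99), the RNA helicase Ddx5 (0.99), the protein phosphatase 1 subunit Ppp1cb (0.99), the actin-bundling protein Pls3 (0.99) and the nucleolar protein Npm1 (0.99). Their log2 fold changes were -0.47, -0.61, -0.93, -0.62 and -0.54 in that order, and the rank product called each lower. They were picked for their likeness to a probe set that was itself chosen for its decrease, so these decreases follow from the choice and are no further result. Gnaq, the closest, had 8.71, 8.41, 8.71 and 8.45 in RA 1 to RA 4, against 8.81, 9.22, 9.21 and 8.92 in control 1 to control 4. As in Serinc1, RA 2 and RA 4 were lowest and control 2 and control 3 highest.

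The pattern was a common one, with r above 0.9 in 87 of 3406 varying probe sets of other genes, against 9 of 3404 for Serinc3 1434548_at and 15 of 3404 for Serinc3 1417815_a_at. The last had Psmb4, C1d, Cnbp, Ywhaz and Fam13c as its closest genes (r = 0.94, 0.94, 0.94, 0.94 and 0.93). With ranks in place of values (Spearman), none of the 5 genes closest to Serinc1 kept a place among the first 5. That loss rests partly on ties. Anks1b, Araf, Arfgef3 and Arhgap5 shared a rho of 0.976, and tied genes were listed in alphabetical order. Ddx5 and Pls3 ranked the arrays as Serinc1 did except that RA 2 and RA 4 changed places, and Npm1 except for RA 1 and RA 3. With group means subtracted, only Gnaq kept its place.

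**Figure D4:**
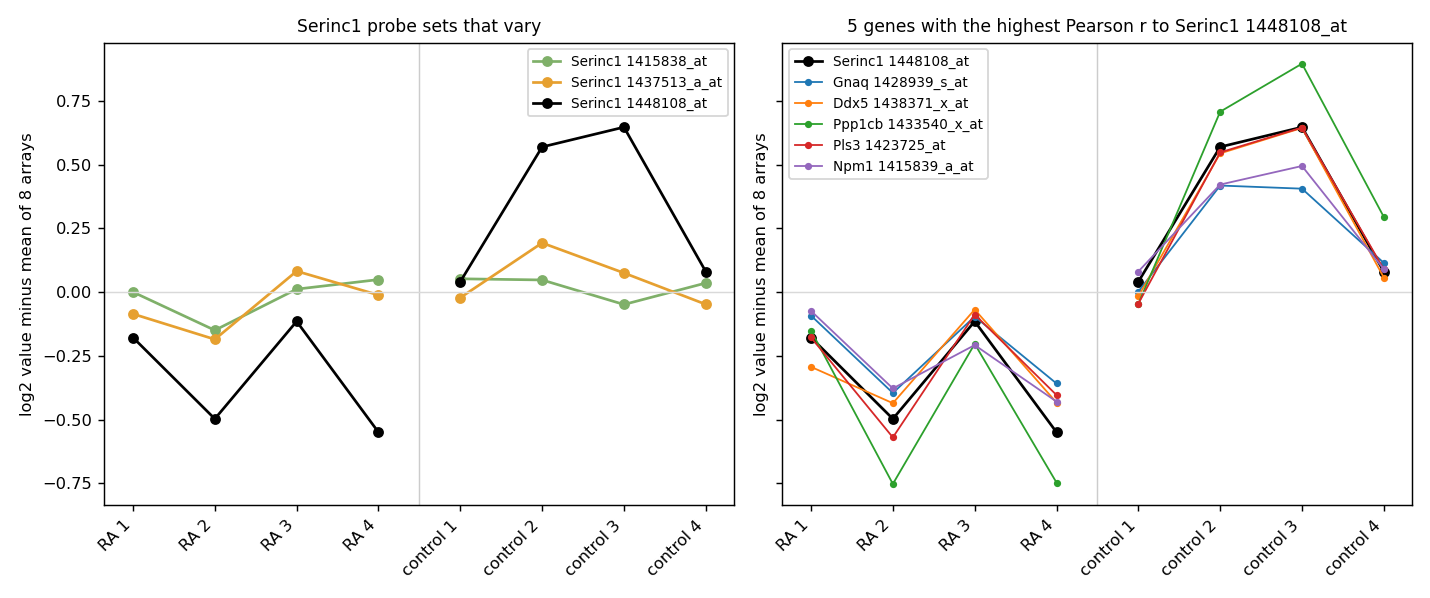
Log2 FARMS values minus the mean of the 8 arrays, for the 3 varying Serinc1 probe sets (left) and for Serinc1 1448108_at beside the 5 genes with the highest Pearson's r to it (right). Lines only join the values of 1 probe set; 1448108_at runs between 10.27 and 11.46, a wider span than 9.67 to 10.05 in 1437513_a_at and 11.42 to 11.62 in 1415838_at, and all 5 genes share the high values of control 2 and control 3.

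Measures of the arrays that vary beside these values were read as well. The 5′ probe set of the actin control, which drops when RNA is shortened, had 11.96, 11.83, 11.91 and 12.13 in RA 1 to RA 4, against 11.82, 12.11, 12.10 and 11.90 in control 1 to control 4. Control 2 and control 3 were high in it as in Serinc1 1448108_at, but RA 4, the lowest array in that Serinc1 probe set, was the highest here. The middle actin probe set had 12.11, 11.996, 12.19 and 12.19 in RA 1 to RA 4, against 12.02, 12.25, 12.20 and 12.08 in control 1 to control 4. Control 2 and control 3 were highest and RA 2 lowest in it, with RA 4 next after control 3. The 3′ actin and both Gapdh controls were constant. Of 10 markers of hippocampal neurons, 7 lay in the upper quartile of all probe sets, and 2 were called lower in RA, where 0.511% of all genes were. All 10 varied, and of all varying probe sets 6.89% were called lower. The mean log2 level of the list was 8.04, 7.58, 8.06 and 8.25 in RA 1 to RA 4, against 7.66, 8.29, 8.35 and 8.09 in control 1 to control 4. Control 2 and control 3 were highest and RA 2 lowest, as RA 2 was among the low arrays in Serinc1 1448108_at, but control 1 was low and RA 4 was not.

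All 12 choroid plexus markers were called higher in RA, where 1.35% of all genes were. All 12 varied, while only 2134 of the 18193 genes behind that share did. Their mean level was 5.63 to 7.90 in RA arrays and 5.65 to 8.17 in control arrays. The defining marker Ttr was at 12.05, 7.67, 13.12 and 13.26 in RA 1 to RA 4, against 8.53, 8.57, 13.39 and 8.90 in control 1 to control 4. Higher calls were made for 5 of 10 meningeal markers, 5 of 8 thalamic, 1 of 6 striatal, 1 of 8 astrocyte and 1 of 7 endothelial markers. The genes that varied numbered 9, 6, 3, 4 and 3 in that order. Over all probe sets, higher calls were not stable, at 412 in all and 4 when only varying probe sets were tested. Of 9 oligodendrocyte markers, 1 was called lower, where 0.511% of all genes were. All 9 varied, and of all varying probe sets 6.89% were called lower. The mean level of this list was 7.88 to 9.26 in RA arrays and 8.05 to 9.33 in control arrays. None of 7 microglial markers was called. The part of tissue content and RNA quality in the Serinc values was not tested.

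The genes that make and move the lipids and serine that Serinc proteins are named for were read from lists of 62 genes, of which 57 had a probe set of their own. Each gene was represented by its probe set with the highest mean, and only 10 of the 57 varied. The rank product called 1 of the 57 lower and none higher, against 0.511% of 18193 genes lower and 1.35% higher. limma called none of the 57 at an adjusted p under 0.05. An unadjusted p under 0.05 was found for 6 of them, of which only Tmem30a varied, and for 10.8% of all genes. The median log2 fold change of the 10 that varied was 0.05, beside 0.08 over the 2134 varying genes.

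The called gene was Tmem30a, the partner subunit of the flippases that keep phosphatidylserine in the inner leaflet of the membrane. Tmem30a 1416447_at had 10.11, 9.68, 10.24 and 9.94 in RA 1 to RA 4, against 10.27, 10.65, 10.69 and 10.26 in control 1 to control 4. All RA arrays lay below all control arrays, although RA 3 and control 4 lay close together, and the log2 fold change was -0.48 (standard error 0.16, adjusted p = 0.418 from limma). The other varying probe set of Tmem30a, 1416446_at, was also called lower and differed by -0.49 on the log2 scale (standard error 0.23). Its groups overlapped, since RA 3 at 9.82 lay above control 1 at 9.48 and control 4 at 9.58. Tmem30a 1448339_at, 1448340_at and 1443619_at were constant at 10.11, 8.58 and 5.38, so differences were not measured in them. The call of 1416447_at held without any 1 array, and was lost when only varying probe sets were tested.

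Of 12 genes of phosphatidylserine synthesis and flipping, Atp11b, a flippase, was the only other one that varied in the probe set used, and its log2 fold change was 0.14 (standard error 0.08). Of 12 genes of serine synthesis, use and transport, 2 varied and none was called. Slc7a10, a transporter of serine in astrocytes, differed by 0.14 on the log2 scale (standard error 0.14), and Psat1, an enzyme of serine synthesis, by 0.07 (standard error 0.14). Phgdh, which takes the first step of serine synthesis, and the other 9 were constant in the probe set used.

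Of 33 genes of sphingolipid synthesis and breakdown, 6 varied in the probe set used and none was called. Ugcg was constant in the probe set used. Its probe set 1421269_at varied, with a log2 fold change of 0.16 (standard error 0.08), and was not called. The sphingosine kinase Sphk1 differed by 0.13 on the log2 scale (standard error 0.21), the sphingomyelin synthases Sgms2 and Sgms1 by 0.11 (standard error 0.29) and 0.03 (standard error 0.11), and the ceramide synthase Cers2 by -0.09 (standard error 0.15). None of these 4 had groups that were apart. Slc7a10 and Sgms2 were called higher without control 3, and the galactosylceramide synthase Ugt8a lower without RA 4.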

How the data were processed

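Hippocampal RNA was measured on 8 arrays, 4 RA and 4 control, grouped by the sample titles. The authors summarised the scanner files with FARMS in R, and the deposited values are log2 summaries per probe set. How arrays were scaled is not given in the sources. FARMS makes most values nearly constant, which hides small differences. Of 45101 probe sets, 64 controls were left out, and 34945 of the remaining 45037 name 1 gene, with symbols updated through gene numbers of GRCm38.p6. No values were rescaled. No 2 arrays were identical. Precision is limited by the number of arrays.

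The rank product ranked the 16 differences between RA and control arrays against 100 permutations within arrays. limma 3.58.1 in R 4.3.3 gave each log2 fold change with its standard error and a p-value adjusted by Benjamini-Hochberg. Both were fitted on all probe sets and tested on simulated data. For the rank product, that test counted recovered shifts and no false calls, so it does not show whether calls are true. A listed gene was represented by its probe set of highest mean. Members, lists and tests were chosen with earlier results of these data known. The lists were genes of serine, phosphatidylserine and sphingolipid metabolism and markers of hippocampal neurons, choroid plexus, meninges, thalamus, striatum, oligodendrocytes, astrocytes, microglia and endothelium. The named genes were every Serinc probe set, every called gene of the metabolic lists or else the 4 largest changes (constant ones are not printed), and the 5 genes most like Serinc1. Genes near or like Serinc3, further probe sets of named genes and Atp11b, Phgdh, Ugcg and Ugt8a were added after their values were seen. Alternatives were subtracting array medians, quantile normalization, testing varying probe sets only, leaving out low means, each array left out, a replicate block, a stricter threshold, limma, the methods' t-test, any probe set of a gene, other SD limits and other measures of likeness.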

Additional observations from a re-analysis of the deposited data

Results flagged for a closer look

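In 3 of 16 combinations of a varying Serinc probe set and a group of 4 arrays, 1 array lay far from the others of its group, with a gap to the nearest array above Dixon's critical value as a share of the group's whole range. Chance alone marks about 1 group in 20, and probe sets of 1 gene are not independent. RA 4 was the distant array in Serinc3 1434548_at, at 5.71 (gap 0.968 of that range), and in Serinc3 1417816_s_at, at 5.77 (gap 0.867). Control 3 was the distant array in Serinc1 1415838_at, at 11.52 (gap 0.835).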

How the results depend on the processing

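The log2 fold changes of the 8 varying Serinc probe sets moved by less than 1 SD between replicates under every setting tried. Leaving out 1 of 4 arrays cannot move a group mean that far, and the replicate block leaves the fold changes as they are. For these settings the comparison with 1 SD therefore shows nothing on stability. Serinc1 1448108_at was at -0.68 under quantile normalization and -0.67 after subtraction of array medians. Without RA 4 the sign turned in Serinc3 1417816_s_at (0.16) and 1434548_at (0.27). The number of varying Serinc probe sets was 8 under every SD limit and scaling tried. Serinc1 1448108_at and Serinc3 1417815_a_at were called lower in all 13 alternative rank product fits, and Serinc3 1455550_x_at in all but that of varying probe sets. Serinc3 1456080_a_at lost its call in that fit too (proportion of false positives 0.411), and without RA 4, control 2 or control 3. As the family was chosen by this difference in Serinc1, these calls restate the choice and are no independent support.

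Calls over all probe sets were less stable. The 412 higher calls became 52 with the filter on low means, 4 among varying probe sets, 58 with the replicate block, 26 at a threshold of 0.01 and 18 to 966 without 1 array (18, 41, 36 and 31 without RA 1 to RA 4, 966 without control 1 and 233 without control 2). The 259 lower calls became 17 among varying probe sets, 155 at a threshold of 0.01, 209 with the replicate block and 136 to 317 without 1 array (136, 151 and 170 without control 2, 3 and 4, and 317 without RA 4). limma, with or without the replicate block, and the methods' t-test after Benjamini-Hochberg adjustment called 0 higher and 0 lower, with 4553 and 4095 probe sets at an unadjusted p under 0.05 in limma and the t-test. The deviations of same-numbered arrays from their group means had r = -0.14, -0.37, 0.45 and -0.40 for numbers 1 to 4, over 3409 varying probe sets. RA 2 and control 1, of unlike number, had r = 0.76. Of the same-numbered arrays, only those of number 3 had r above 0. RA 4 and control 4 were low together in Serinc3, although their r over all varying probe sets was -0.40. Whether the numbers mark pairs was not tested.

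Among the 57 lipid and serine genes, the 0 higher calls became 2 without control 3 and the 1 lower call became 2 without RA 4 and 0 among varying probe sets, by limma, by limma with the replicate block and by the t-test. The replicate block kept it at 1. Of the 5 genes most like Serinc1, 0 remained by Spearman and 1 with group means subtracted. The count by Spearman depends on the alphabetical order of tied genes and shows little on stability. Pairs of Serinc probe sets that passed numbered 3, but 1 by Spearman, 0 with group means subtracted and 0 without the 2 farthest arrays. The cause of these changes was not tested.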
